A study of Mus musculus with 154 samples.

Results

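The coagulation and complement genes of the mouse liver were followed across 24 strains. Of the 39 genes listed by symbol, 38 were matched through GENCODE identifiers to the table of 13289 genes, and Klkb1 was not matched and has no value here. Liver RNA was sequenced from 154 mice labelled as male, taken at 5 weeks of age after a fast. Each mouse was C57BL/6J (B6) on all chromosomes, or was B6 with 1 or 2 chromosomes carried in a single copy from the strain A/J. These chromosome substitution strains (CSSs) show what an entire A/J chromosome does, alone or beside another, when the rest of the genome is B6. The comparisons of a single CSS with B6, and of a double CSS with the sum of its parts, address how much of the variation in expression depends on the genetic background.

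The control group was B6 (n = 20). Strains are named with the dam first. The single CSSs with the A/J chromosome from the dam were (B6.A3 x B6)F1 and (B6.A17 x B6)F1 for chromosomes 3 and 17 and, for chromosomes 6 and 14, (B6.A6 x B6)F1 with (B6.A14 x B6)F1, of 8 mice each. Those with it from the sire were (B6 x B6.A8)F1 and, for chromosomes 4 and 10, (B6 x B6.A4)F1 with (B6 x B6.A10)F1, of 8 mice each, and (B6 x B6.A5)F1 of 7 mice. They are called A3 to A17. In the 15 double CSSs the dam carried A3, A6, A14 or A17 and the sire A4, A5, A8 or A10, and each had between 3 and 6 mice, 71 in total. Every substituted chromosome was heterozygous, so that only dominant or partly dominant effects could appear. A substituted chromosome carries many A/J variants, and these data do not resolve which of them acts. A main effect, such as A8, is the log2 difference between a single CSS and B6. An interaction, such as A14:A8, is the log2 distance between the double CSS and the sum of its 2 main effects. All 8 main effects and all 15 interactions use the same B6 mice. Interactions that share a chromosome also use the same mice of its single CSS. The values are therefore not independent of each other. Nothing in the labels tells which mice were littermates, so p-values measure the spread between these mice.

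Most of these genes encode proteins that hepatocytes secrete into plasma. In coagulation, vitamin K dependent proteases such as prothrombin (F2), factor VII (F7), factor IX (F9) and factor X (F10) activate one another with the help of cofactors such as factor V (F5), until thrombin turns fibrinogen (Fga, Fgb and Fgg) into fibrin, while serpins and plasmin (from Plg) limit and dissolve the clot. In complement, the classical, lectin and alternative routes meet at C3, and the terminal components C5 (Hc), C6, C8 and C9 build the membrane attack complex. Some members also belong to the acute phase response, in which the liver alters its secretion during inflammation.

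The total per mouse lay between 4638701 and 30465477 counts (median 16116424), and the 38 members took 2.26% to 5.78% of them (median 3.49%). Per kilobase of exon, the mean level in B6 ran from 1740 CPM (counts divided by the TMM-normalized library size and rescaled) for Fgg, 1580 for Fga and 1350 for C3 down to 2.46 for the alternative pathway protease Cfb. Over the 20 B6 mice the coefficient of variation was 4.97% for F2 and 5.11% for F10, but 36.7% for C6, 33.1% for Fga and 30.3% for Fgg and Mbl2. Of the exonic bases of Cfb and C2, 79.5% and 42.8% were shared on the same strand with Gm20547, so the counts of both are uncertain. Kng1 and Kng2 are known as near copies of each other, as C4b is of C4a, and how their reads were split was not examined.

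Hepatocyte markers were abundant in all mice, as in liver. Their summed level was 111000 to 173000 CPM in B6 and 62200 to 124000 CPM in (B6 x B6.A8)F1, where 7 of 9 markers were lower. It was 68400 to 138000 CPM in (B6.A14 x B6)F1, where 5 of 9 were lower. Of all genes, 29.6% were called in A8 (16.7% lower) and 22.5% in A14 (12.6% lower). Of 8 endothelial markers, 3 were called in A8 (2 higher) and 4 in A14 (3 higher). Of 8 Kupffer cell markers, 1 was called in A8 (lower) and 3 in A14 (2 higher), and of 8 stellate markers 3 in A8 (1 higher) and 2 in A14 (1 higher). Of the cholangiocyte markers 1 was called in A8 (higher), and of the lymphoid and platelet markers none in either strain. The summed levels of every marker list, that of hepatocytes included, overlapped B6 in both strains. Of all mice, 1 labelled as male had 2.94 CPM summed over 4 Y-linked genes, against 227.5 to 432.0 CPM in the others. It is replicate 3 of (B6.A14 x B6.A4)F1, and results of that strain are given with and without it. In bulk liver RNA, fewer hepatocytes and less RNA of these genes per hepatocyte cannot be told apart. The share of counts from mitochondrial genes also moved with these strains. It was 6.77% to 11.6% in B6 (median 8.53%), 9.42% to 20.8% in (B6 x B6.A8)F1 (median 14.6%) and 9.31% to 18.5% in (B6.A14 x B6)F1 (median 13.6%). In (B6.A14 x B6.A8)F1 it was 6.90% to 9.58%, and in (B6.A6 x B6.A8)F1 it was 7.47% to 8.47%. The part of hepatocyte share and of mitochondrial share in the results was not tested, and counts from a model with the mitochondrial share as a covariate are given beside the effects whose calls it changed. Shares of all genes were counted only in the model without this covariate.

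The 250 bases before and 50 bases after the annotated start are shown for 5 members, from RefSeq on GRCm38.p6. F7 and F10 are neighbours on chromosome 8 and lie on the substituted chromosome in A8. C3 and F5 had the lowest adjusted p among the off-chromosome members in both A8 and A14, and Mbl1, which encodes a mannose-binding lectin, was higher in 5 strains. The windows are chr8:13025784-13026083, plus strand (F7), chr8:13037058-13037357, plus strand (F10), chr17:57228087-57228386, minus strand (C3), chr1:164151585-164151884, plus strand (F5) and chr14:41151206-41151505, plus strand (Mbl1). Each is written 5′ to 3′ in the direction of its gene, with the C/EBP motif letters in capitals.
F7: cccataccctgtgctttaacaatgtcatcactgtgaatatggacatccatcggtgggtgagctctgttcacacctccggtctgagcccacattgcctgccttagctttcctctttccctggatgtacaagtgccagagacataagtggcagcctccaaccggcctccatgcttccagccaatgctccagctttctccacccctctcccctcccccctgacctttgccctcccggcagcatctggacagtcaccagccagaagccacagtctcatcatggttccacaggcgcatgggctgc
F10: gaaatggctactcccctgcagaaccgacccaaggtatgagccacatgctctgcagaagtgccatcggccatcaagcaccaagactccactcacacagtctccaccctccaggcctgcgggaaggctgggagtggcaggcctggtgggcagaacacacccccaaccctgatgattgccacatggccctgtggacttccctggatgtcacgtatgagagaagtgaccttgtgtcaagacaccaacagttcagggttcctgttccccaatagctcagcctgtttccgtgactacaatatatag
C3: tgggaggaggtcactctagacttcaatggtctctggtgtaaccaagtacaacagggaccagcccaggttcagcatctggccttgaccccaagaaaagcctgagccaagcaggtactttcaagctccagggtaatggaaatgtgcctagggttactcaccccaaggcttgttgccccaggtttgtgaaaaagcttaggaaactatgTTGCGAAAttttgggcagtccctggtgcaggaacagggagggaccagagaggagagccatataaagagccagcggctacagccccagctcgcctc
F5: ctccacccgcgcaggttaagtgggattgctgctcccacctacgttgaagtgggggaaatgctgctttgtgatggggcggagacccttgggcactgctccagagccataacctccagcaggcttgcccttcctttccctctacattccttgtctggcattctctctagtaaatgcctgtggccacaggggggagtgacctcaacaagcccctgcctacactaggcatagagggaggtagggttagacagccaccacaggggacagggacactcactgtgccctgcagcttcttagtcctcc
Mbl1: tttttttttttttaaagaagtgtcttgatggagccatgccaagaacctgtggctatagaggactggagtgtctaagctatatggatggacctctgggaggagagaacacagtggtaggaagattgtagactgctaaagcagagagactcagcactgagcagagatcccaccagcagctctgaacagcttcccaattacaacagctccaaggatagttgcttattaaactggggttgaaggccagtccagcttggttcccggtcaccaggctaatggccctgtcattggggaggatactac

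Of the 38 members, 29 had such a window. Windows on chromosome 18, which carries Proc, were left out of the search. Members were counted by gene and the comparison by window. The letters TTNNGCAA of the C/EBP motif, searched on both strands, were present in 9 of the 29 (31.0%) and in 10.8% of all 32851 windows. Of the 5 windows shown, that of C3 held it. The STAT3 letters TTCCNGGAA were present in Fga and Pros1 (1.15% of all windows), the HNF1 letters GTTAATNAT in C4bp, F13b, Fga and Hc (0.801%) and the HNF4 letters CAAAGTCCA in none of the members (0.475%). These matches describe the reference letters alone, which do not include the A/J alleles.

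Levels of the members differed between strains. In the joint test of all strains, 37 of 38 members passed an FDR of 0.05, where 51.4% of all genes did (quasi-likelihood F-test of edgeR, BH-adjusted). The exception was F13b, the carrier subunit of factor XIII (BH-adjusted p = 0.104 by edgeR). Over the 8 main effects, 73 of the possible calls were made, 20 higher and 53 lower than B6. They were unevenly spread. A8 had 28 calls, A14 had 26, A4 had 9, A6 and A10 had 4 each, A3 and A17 had 1 each and A5 had 0. The shares of all genes called were 29.6% in A8, 22.5% in A14, 13.5% in A4 and 0.768% in A5. In A5, 6 members had an unadjusted p under 0.05, and DESeq2's Wald test also called 0. F9, F13b, Mbl2 and C8b had no main effect that passed the test.

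**Figure D1:**
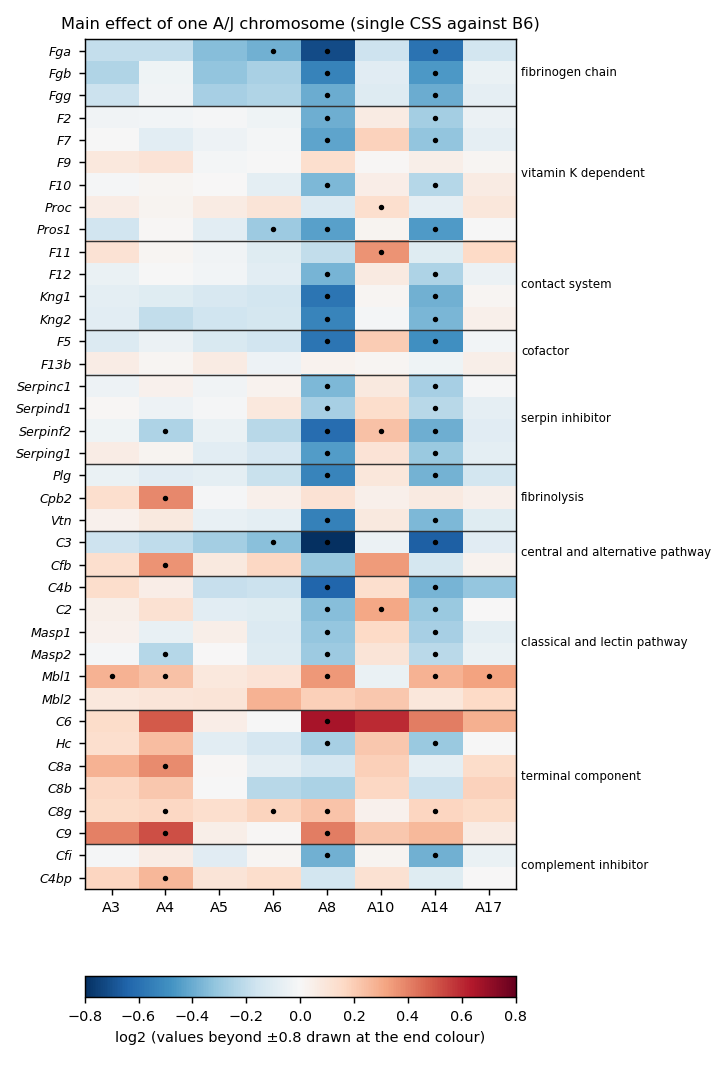
Log2 difference between each single CSS and B6 (colour, columns) for the 38 members (rows, grouped by role), with a dot where edgeR's adjusted p was under 0.05. The columns A8 and A14 are mostly blue, with 24 lower members each, while Mbl1 and the terminal component C8g are red.

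Substitution of chromosome 8 gave the most calls. Lower levels were found for 24 members, against 16.7% of all genes, and higher levels for 4, against 12.9% of all genes. The median of the members was -0.35 on the log2 scale, against -0.01 over all genes tested and -0.33 over the 9 hepatocyte markers. All 3 fibrinogen chains and all 4 serpin inhibitors (Serpinc1, Serpind1, Serpinf2 and Serping1) were lower, with 4 of 6 vitamin K dependent proteins, 3 of 4 contact system genes and 4 of 6 genes of the classical and lectin pathways. Among the 6 terminal components 1 was lower (Hc) and 3 were higher (C6, C8g and C9). The 24 lower members had log2 differences between -0.80 and -0.27. Leaving out each of the 8 mice in turn, with the surrogate variables from all mice kept, left between 27 and 30 calls. With the mitochondrial share as a covariate, 24 members were called, 21 of them lower, and the median was -0.23.

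C3, the protein at which the complement routes meet, was furthest below B6. Its level was 5190 to 9380 CPM in B6 (median 6830) and 3030 to 4650 CPM in (B6 x B6.A8)F1 (median 3480). All 8 mice lay below the lowest B6 mouse, and the log2 difference was -0.80 ± 0.10 (SE; edgeR, BH-adjusted p = 1.18e-09), or 57.3% of the B6 level. F5, the cofactor of prothrombin activation, was 470.8 to 828.8 CPM in B6 (median 582.0) and 256.3 to 497.7 CPM in A8 (median 329.7). Here 7 of 8 mice were below all B6 mice, with a log2 difference of -0.59 ± 0.08 (SE; edgeR, BH-adjusted p = 1.32e-09). Vtn, which encodes the plasma and matrix protein vitronectin, was 1840 to 2540 CPM in B6 (median 2030) and 910.2 to 1920 CPM in A8 (median 1290), again with 7 of 8 mice below B6. Its log2 difference was -0.54 ± 0.07 (SE; edgeR, BH-adjusted p = 3.45e-09).

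Of the 3 members that lie on chromosome 8 itself, F7 and F10 were lower in A8 and F11 did not pass the test, and 34.4% of all chromosome 8 genes were called in A8. F7 (chr8:13026034-13035809), which starts the extrinsic pathway with tissue factor, was 49.9 to 73.7 CPM in B6 (median 59.5) and 33.8 to 47.2 CPM in A8 (median 40.4). No mouse of A8 overlapped B6, and the log2 difference was -0.42 ± 0.07 (SE; edgeR, BH-adjusted p = 2.45e-07). F10 (chr8:13037308-13056676), which encodes the protease that cleaves prothrombin, was 307.0 to 376.1 CPM in B6 (median 342.3) and 201.4 to 305.9 CPM in A8 (median 246.1). All 8 mice were again below B6, with the highest of them close to the lowest B6 mouse, and the log2 difference was -0.36 ± 0.05 (SE; edgeR, BH-adjusted p = 2.69e-09). F11, the contact factor XI, differed by -0.20 ± 0.10 (SE; edgeR, BH-adjusted p = 0.122). F2, which lies on chromosome 2, was the other member whose 8 mice were all below B6, at 721.5 to 1220 against 1260 to 1540 CPM. The share of all genes set apart from B6 in this way was not counted.

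Substitution of chromosome 14 gave 24 lower members, against 12.6% of all genes, and 2 higher ones, Mbl1 and C8g, against 9.98%. The median of the members was -0.27, against -0.01 over all genes and -0.22 over the 9 hepatocyte markers. The 24 lower members were the same as those lower in A8, and both comparisons rest on the same B6 mice. F5 was 277.7 to 494.0 CPM in (B6.A14 x B6)F1 (median 368.7), with 7 of 8 mice below B6 and a log2 difference of -0.49 ± 0.07 (SE; edgeR, BH-adjusted p = 1.01e-07). C3 was 3470 to 4930 CPM (median 4110), with all 8 mice below B6 and a log2 difference of -0.66 ± 0.10 (SE; edgeR, BH-adjusted p = 1.3e-07). Cfi, the protease that inactivates C3b, was 383.3 to 568.1 CPM against 539.3 to 804.4 CPM in B6, with 6 of 8 mice below B6 and a log2 difference of -0.39 ± 0.07 (SE; edgeR, BH-adjusted p = 5.96e-06). F2 and Vtn were the other members with all 8 mice below B6, which was not counted over all genes. Leaving out each of the 8 mice in turn left between 24 and 26 calls, and with the mitochondrial share as a covariate 18 members were called, all of them lower, so that Mbl1 and C8g were no longer called.

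Mice of the same strain were not alike. For each mouse, the median over the 38 members of the log2 difference from the B6 mean was taken. It was between -0.07 and 0.11 in the 20 B6 mice, between -0.78 and -0.09 in (B6 x B6.A8)F1 (median -0.49) and between -0.66 and -0.08 in (B6.A14 x B6)F1 (median -0.31). In A8, mice with mitochondrial shares of 9.42%, 10.8%, 12.6%, 14.3%, 14.9%, 15.1%, 18.9% and 20.8% had values of -0.09, -0.52, -0.31, -0.36, -0.52, -0.47, -0.71 and -0.78. The lowest share went with the value nearest to B6 and the 2 highest with the lowest values, while the mouse with the second lowest share was at -0.52. In A14, shares of 9.31%, 10.5%, 11.9%, 12.9%, 14.3%, 14.4%, 15.1% and 18.5% went with -0.08, -0.08, -0.36, -0.25, -0.24, -0.46, -0.56 and -0.66. In the other 21 strains, single and double, the strain medians lay between -0.13 and 0.10.

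**Figure D2:**
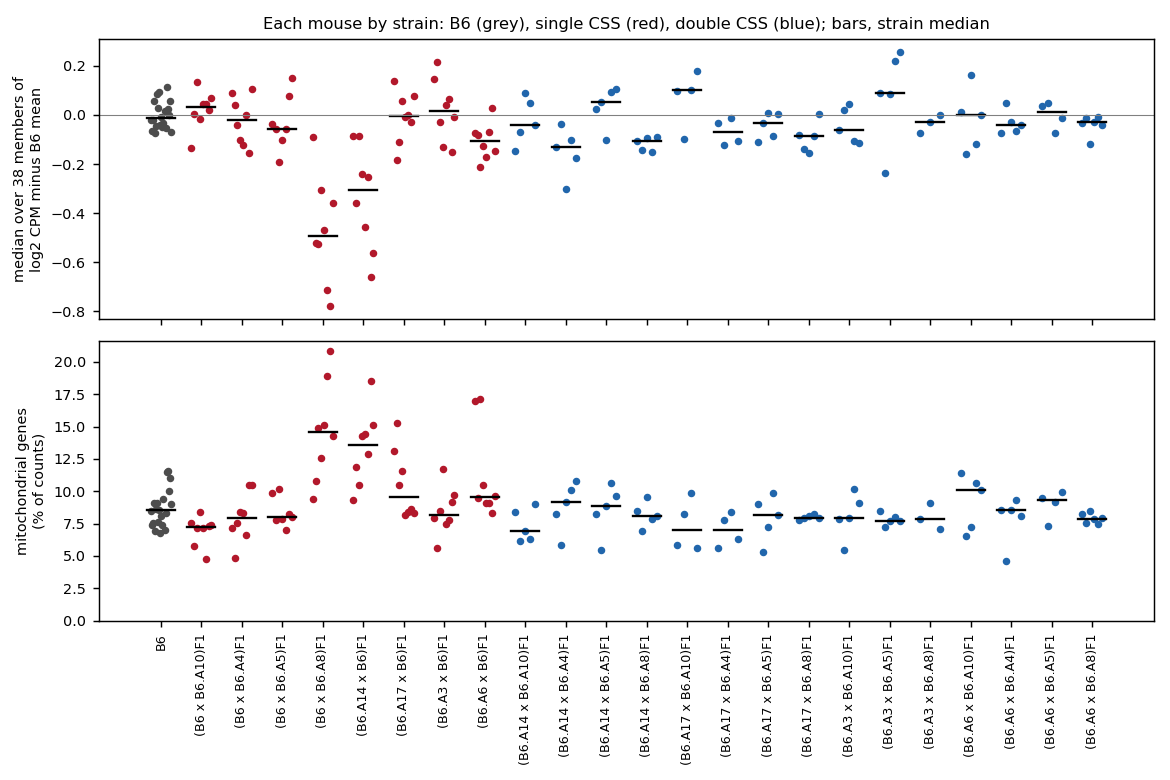
Median over the 38 members of log2 CPM minus the B6 mean (upper panel) and share of counts from mitochondrial genes in percent (lower panel), each point a mouse and each bar the strain median. The single CSSs A8 and A14 stand below B6 in the upper panel and above it in the lower, and the strain medians of the double CSSs with A8 stand nearer to B6 in both.

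Substitution of chromosome 4 gave 9 calls. Of these, 7 were higher (7.60% of all genes were) and 2 lower (5.88% of all genes were), and the median of the members was 0.02. There were 10 calls, 7 of them higher, with the mitochondrial share as a covariate. Cpb2, a carboxypeptidase that slows clot lysis, was 287.3 to 495.2 CPM in (B6 x B6.A4)F1 (median 364.1) against 259.7 to 389.2 CPM in B6 (median 296.8). The groups overlapped, with 3 of 8 mice above all B6 mice, and the log2 difference was 0.38 ± 0.06 (SE; edgeR, BH-adjusted p = 3.11e-06). C4bp, which encodes the alpha chain of the C4b-binding inhibitor, was 470.0 to 710.8 CPM against 427.1 to 607.7 CPM, with a log2 difference of 0.27 ± 0.07 (SE; edgeR, BH-adjusted p = 0.00352). C9, the pore-forming terminal component, was 434.0 to 1020 CPM against 317.5 to 833.9 CPM in B6, with a log2 difference of 0.51 ± 0.14 (SE; edgeR, BH-adjusted p = 0.00837). Both overlapped B6 in 6 of 8 mice.

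Of the members, 3 lie on chromosome 4, where 26.2% of all genes were called in A4. Masp2 (chr4:148602554-148615499), the protease of the lectin pathway, was 143.7 to 190.5 CPM against 167.3 to 219.5 CPM in B6, with 5 of 8 mice below B6. Its log2 difference was -0.23 ± 0.05 (SE; edgeR, BH-adjusted p = 0.000154). C8a (chr4:104815679-104876398), a chain of C8, was 482.1 to 1020 CPM against 497.4 to 775.0 CPM, and its mice spread to both sides of B6, with 1 below and 3 above. Its log2 difference was 0.38 ± 0.11 (SE; edgeR, BH-adjusted p = 0.00616). C8b, the partner chain, differed by 0.22 ± 0.10 (SE; edgeR, BH-adjusted p = 0.0904), and by 0.24 without the mouse low in Y-linked RNA, where it passed (edgeR, BH-adjusted p = 0.02).

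The remaining single CSSs had few calls. In A6, where 8.09% of all genes were called, Pros1, C3 and Fga were lower and C8g was higher. Pros1, which encodes the anticoagulant protein S, was 95.8 to 138.1 CPM against a median of 157.1 CPM in B6, with 3 of 8 mice below B6 and a log2 difference of -0.29 ± 0.08 (SE; edgeR, BH-adjusted p = 0.0129). C3 differed by -0.34 ± 0.09 (SE; edgeR, BH-adjusted p = 0.0133) and Fga by -0.39 ± 0.11 (SE; edgeR, BH-adjusted p = 0.0154). With the mitochondrial share as a covariate 3 members were called in A6, and Pros1 did not pass (-0.23; edgeR, BH-adjusted p = 0.0589). In A10, where 6.64% were called, F11, C2, Proc and Serpinf2 were higher. F11 was 52.1 to 67.3 CPM against 38.8 to 62.1 CPM, with a log2 difference of 0.36 ± 0.09 (SE; edgeR, BH-adjusted p = 0.0124), and 2 of 8 mice above B6. C2 differed by 0.31 ± 0.08 (SE; edgeR, BH-adjusted p = 0.0149). The value for Proc, which encodes protein C, was 0.14 ± 0.04 (SE; edgeR, BH-adjusted p = 0.0442), and it turned to -0.03 without surrogate variables. With the mitochondrial share as a covariate 1 of the 4 members was called in A10, F11 (0.32; edgeR, BH-adjusted p = 0.0285), and without surrogate variables 0 were, with F11 at 0.26 (edgeR, BH-adjusted p = 0.0565).

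In A8 and A14, Mbl1 went against most members. In A3, A4 and A17, 21, 23 and 18 of the 38 members had positive values. Mbl1 was higher in all 5 of these single CSSs. It was 89.3 to 173.6 CPM in B6 (median 142.1), 156.1 to 209.0 CPM in A8 (median 171.2), up to 178.8 CPM in A14 (median 166.0), 132.7 to 208.8 CPM in A3 (median 157.9), up to 220.3 CPM in A4 (median 146.5) and 150.7 to 281.4 CPM in A17 (median 181.2). All 5 groups overlapped B6, with 4, 2, 1, 3 and 6 mice above the highest B6 mouse. The log2 differences were 0.35 in A8, 0.28 in A14 and A3, 0.24 in A4 and 0.32 in A17 (edgeR, BH-adjusted p = 0.000991, 0.00421, 0.0234, 0.0365 and 0.0172). Mbl1 (chr14:41151458-41159601) lies on the substituted chromosome in A14, where 32.3% of all chromosome 14 genes were called. It did not pass in A14 with the mitochondrial share as a covariate (0.20; edgeR, BH-adjusted p = 0.0752). In A3 and in A17 it was the only member called, against 3.70% and 3.67% of all genes.

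The other members on their own substituted chromosome did not pass the test. These were Fga (-0.19 ± 0.11, SE), Fgb (-0.24 ± 0.10), Fgg (-0.17 ± 0.10) and Cfi (-0.01 ± 0.06) in A3, Cpb2 in A14 (0.07 ± 0.06) and, in A17, C3 (-0.09 ± 0.09), C2 (0.00 ± 0.08), Plg (-0.15 ± 0.07), C4b (-0.31 ± 0.12) and Cfb (0.03 ± 0.12). Of all genes on the substituted chromosome, 11.9% were called in A3 and 17.1% in A17. Over the 17 such pairs of member and chromosome, 5 were called (18.4% of all such genes), and of the 287 pairs off the substituted chromosome 68 were called (10.7%).

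Interactions were called in 7 of the 15 crosses, and 102 of 570 pairs of member and cross passed the test, 87 of them positive, where 5.96% of all pairs of gene and cross did. In the joint test of all interactions, 33 of 38 members passed, where 27.4% of all genes did. With the mitochondrial share as a covariate 18 members passed, and the share of all genes was not counted. Those that did not pass in the model without it were C4bp, C6, C8a, F13b and Fgg. A14:A8 had 32 calls, where 32.4% of all genes were called, and A6:A8 had 27, where 24.8% were. A17:A8 had 14 (8.68% of all genes), A3:A8 had 12 (7.56%), A14:A5 had 9 (4.04%), A14:A10 had 5 (4.16%) and A14:A4 had 3 (4.63%). Over all genes called, 2407 of 4305 were positive in A14:A8, 1786 of 3299 in A6:A8, 658 of 1154 in A17:A8 and 652 of 1005 in A3:A8. The same was true of 331 of 537 in A14:A5, 325 of 553 in A14:A10 and 343 of 615 in A14:A4. In the other 8 crosses, where 0.387% of all pairs were called, edgeR and DESeq2 called 0 members, apart from 1 by DESeq2 in A6:A4, and between 0 and 9 members had an unadjusted p under 0.05. With the mitochondrial share as a covariate, 45 calls remained in number, with 24 in A14:A8, 18 in A6:A8, 2 in A14:A4, 1 in A14:A5 and 0 in A17:A8, A3:A8 and A14:A10.

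**Figure D3:**
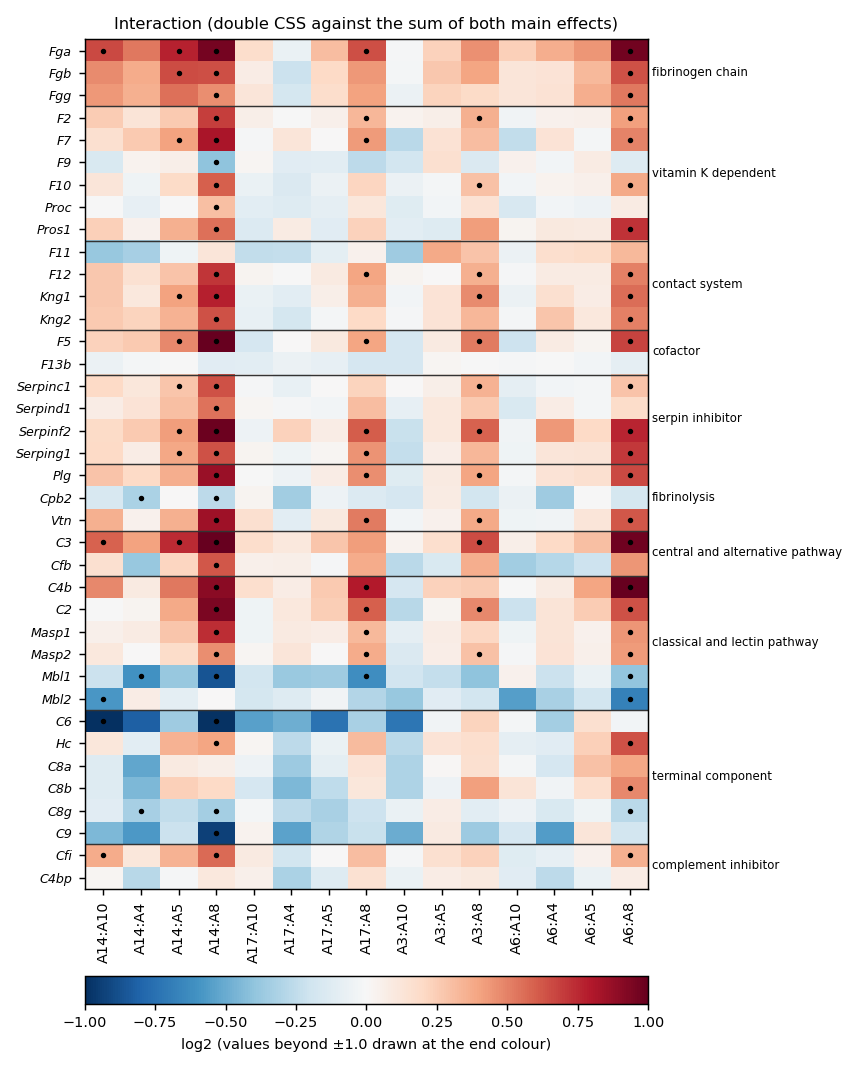
Interaction of each cross (columns) for the 38 members (rows, grouped by role) as log2, with a dot where edgeR's adjusted p was under 0.05. The columns A14:A8 and A6:A8 are mostly red, with 26 and 24 positive calls, and Mbl1, C6, C8g and C9 are blue in A14:A8.

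In (B6.A14 x B6.A8)F1, 3 of the 38 members differed from B6, against 28 in A8 and 26 in A14, and 14 had an unadjusted p under 0.05. Of all genes, 4.91% differed from B6 in this double CSS, against 29.6% in A8 and 22.5% in A14. The median per mouse over the members was -0.15 to -0.09 in its 5 mice, below the lowest B6 mouse (-0.07). Over the 38 members the median of the 2 main effects added together was -0.60, the median of the double CSS against B6 was -0.09, and the median interaction was 0.58 (0.02 over all genes). Over the 9 hepatocyte markers the median interaction was 0.48, with 6 called, each positive. F5 was 582.9, 578.1, 522.6, 616.3 and 625.8 CPM in the 5 mice, all within the B6 range. Its sum of main effects was -1.08, its difference from B6 was 0.00 and its interaction was 1.08 ± 0.12 (SE; edgeR, BH-adjusted p = 2.29e-12). F2 was 1330, 1380, 1360, 1250 and 1290 CPM, with 1 mouse just below the B6 range. Its interaction was 0.69 ± 0.08 (SE; edgeR, BH-adjusted p = 6.91e-11). F12, the contact factor XII, was 424.1, 458.2, 431.9, 408.1 and 421.5 CPM, within the 360.8 to 468.2 CPM of B6, while A8 mice were at 219.9 to 390.3 and A14 mice at 248.6 to 417.1 CPM. Its interaction was 0.72 ± 0.09 (SE; edgeR, BH-adjusted p = 2.06e-10). The 6 negative interactions were F9, Cpb2, Mbl1, C6, C8g and C9. In 31 of the 32 called members the double CSS was nearer to B6 than the sum was, and F9 was the exception, with a sum of 0.18 and a double CSS at -0.22. This was not counted over all genes. An interaction is the double CSS minus that sum, so a called one tends to oppose the sum. The authors classed most interactions over all genes as antagonistic, with a smaller difference from B6 than additivity predicts.

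**Figure D4:**
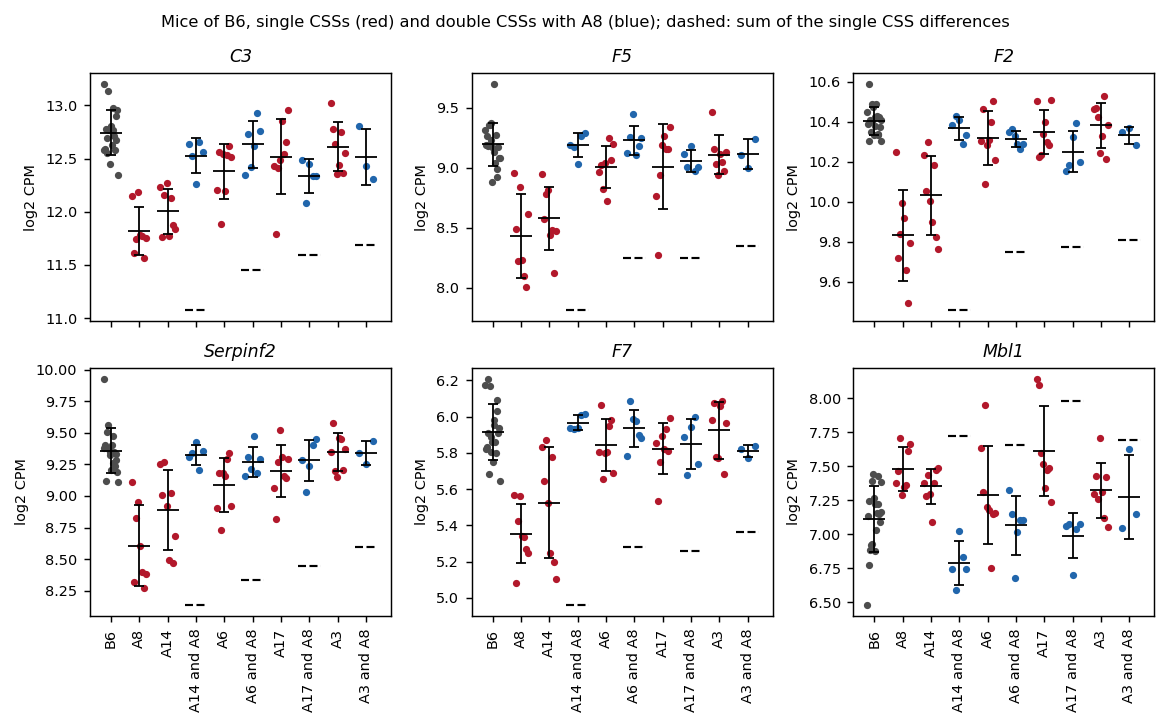
Log2 CPM of each mouse in B6 (grey), single CSSs (red) and double CSSs with A8 (blue) for 6 members, with the strain mean and SD as black bars and a dashed line at the B6 mean plus both single CSS differences in mean. For C3, F5, F2, Serpinf2 and F7 the blue points stand with B6 and above the dashed lines, and for Mbl1 they stand below them.

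The same direction was seen with A6 as the partner of A8, in an interaction that uses the same mice of (B6 x B6.A8)F1. So do the interactions of A17 and A3 with A8. C3 was 5190, 6810, 5480, 6300, 7800 and 6910 CPM in the 6 mice of (B6.A6 x B6.A8)F1, within the B6 range. The sum of main effects was -1.14, the double CSS differed from B6 by -0.17, and the interaction was 0.97 ± 0.15 (SE; edgeR, BH-adjusted p = 7.27e-07). Serping1, the C1 inhibitor, was 592.5, 564.8, 570.6, 612.6, 650.8 and 620.7 CPM against 496.7 to 688.4 CPM in B6 and 256.3 to 538.5 CPM in A8. Its interaction was 0.70 ± 0.11 (SE; edgeR, BH-adjusted p = 1.25e-06). Serpinf2, the inhibitor of plasmin, was 570.8, 633.0, 592.0, 712.1, 580.0 and 626.5 CPM, with an interaction of 0.76 ± 0.12 (SE; edgeR, BH-adjusted p = 1.85e-06). In all 27 called members the double CSS was nearer to B6 than the sum, which was again not counted over all genes. Of the 27 interactions 24 were positive, against 1786 of 3299 over all genes called. Of the 9 hepatocyte markers 5 were called in A6:A8, each positive, with a median of 0.33 over the 9.

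With A17 as partner, 13 of 14 interactions were positive, against 658 of 1154 over all genes called. With the mitochondrial share as a covariate 0 were called. Of the 9 hepatocyte markers 2 were called in A17:A8, each positive, with a median of 0.25 over the 9. Serpinf2 was 623.2, 523.7, 604.5, 675.6 and 700.6 CPM in (B6.A17 x B6.A8)F1, where 1 mouse was below B6, and its interaction was 0.60 ± 0.13 (SE; edgeR, BH-adjusted p = 0.00198). Vtn was 1840, 1810, 1820, 1890 and 1830 CPM, at the lower end of the B6 range with 3 mice below it, and its interaction was 0.52 ± 0.11 (SE; edgeR, BH-adjusted p = 0.00217). Mbl1, at 133.4, 134.8, 103.6, 131.6 and 134.8 CPM, was within the B6 range, and its interaction was -0.63 ± 0.14 (SE; edgeR, BH-adjusted p = 0.00271). With A3 as partner all 12 interactions were positive, against 652 of 1005 over all genes called, and again 0 were called with that covariate. Of the 9 hepatocyte markers 3 were called in A3:A8, each positive, with a median of 0.37 over the 9. In the 3 mice of (B6.A3 x B6.A8)F1, Serpinf2 was 646.8, 609.0 and 692.6 CPM, F5 was 550.9, 509.8 and 606.2 CPM and Serpinc1, which encodes antithrombin, was 1710, 1620 and 1510 CPM, all within the B6 range. Their interactions were 0.59, 0.52 and 0.35 (edgeR, BH-adjusted p = 0.00539, 0.00739 and 0.00839). Leaving out replicate 1 or 3 of this strain left 7 and 2 calls of the 12.

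**Figure D5:**
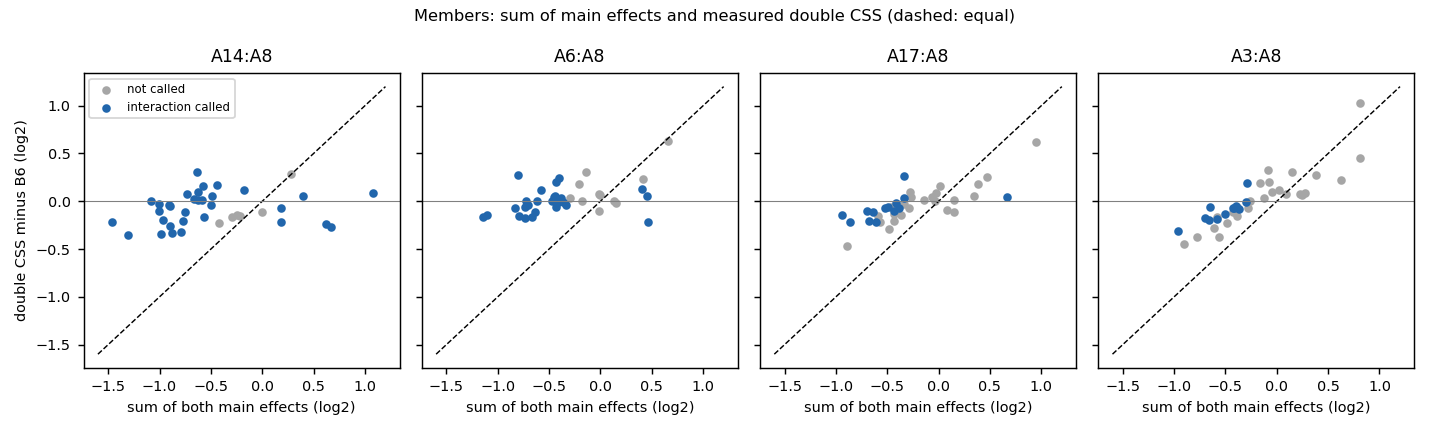
Difference of the double CSS from B6 (y axis, log2) against the sum of both main effects (x axis, log2) for the 38 members in 4 crosses with A8, in blue where the interaction was called. The dashed line marks equality, and the points of A14:A8 and A6:A8 lie along 0 rather than along that line.

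F7 and F10, on chromosome 8, showed this as well, although every mouse of the double CSSs with A8 carries the same A/J chromosome 8. F7 was 61.1, 60.9, 61.1, 64.4 and 64.6 CPM with A14, 55.0, 67.7, 63.4, 62.9, 59.6 and 58.8 CPM with A6, 59.1, 51.0, 61.5, 63.8 and 53.3 CPM with A17 and 56.5, 54.5 and 57.1 CPM with A3. All 19 of these mice were within the B6 range and above the highest mouse of the single CSS (47.2 CPM). The interaction of F7 was 0.81 in A14:A8, 0.50 in A6:A8 and 0.43 in A17:A8 (edgeR, BH-adjusted p = 1.03e-09, 0.000102 and 0.00782), and 0.31 in A3:A8, which did not pass (edgeR, BH-adjusted p = 0.0946). F10 ranged from 281.0 to 356.3 CPM over the same 19 mice, against 201.4 to 305.9 CPM in the single CSS, so these overlapped. Its interaction was 0.60, 0.38 and 0.29 in A14:A8, A6:A8 and A3:A8 (edgeR, BH-adjusted p = 7.97e-10, 5.26e-05 and 0.0235), and 0.22 in A17:A8, which did not pass (edgeR, BH-adjusted p = 0.0718). With the mitochondrial share as a covariate, 0 members were called in A17:A8 and 0 in A3:A8.

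Crosses of A14 with A5, A10 and A4 had fewer calls. In A14:A5 all 9 interactions were positive, against 331 of 537 over all genes called. C3 was at 0.75, Fga at 0.77 and F5 at 0.48 (edgeR, BH-adjusted p = 0.00381, 0.0093 and 0.0113). Fga was 4250, 4170, 4210, 4290 and 4090 CPM in (B6.A14 x B6.A5)F1, within the 3190 to 10200 CPM of B6, and leaving out replicate 1 or 5 of this strain left 4 and 5 calls. With the mitochondrial share as a covariate 1 call was left in A14:A5, and neither Fga nor F5 passed (edgeR, BH-adjusted p = 0.0662 and 0.0817). In A14:A10, C3 (0.59) and Fga (0.66) were positive and C6 was negative at -1.30 ± 0.38 (SE; edgeR, BH-adjusted p = 0.0334). C6 was 89.9, 102.7, 105.8, 90.1 and 71.1 CPM, inside the 41.4 to 204.1 CPM of B6. In A14:A4 the 3 calls were negative, with Mbl1 at -0.61, C8g at -0.34 and Cpb2 at -0.32 (edgeR, BH-adjusted p = 0.00646, 0.0261 and 0.0478). Leaving out single mice left 2 to 4 calls in A14:A10 and 1 to 5 in A14:A4. Without the mouse low in Y-linked RNA, Mbl1 was the 1 call in A14:A4, A14:A5 had 5 calls and A14:A10 had 3.

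Compared directly with B6, the 15 double CSSs had 35 calls among 570 pairs, where 3.98% of all pairs of gene and strain were called. Of these, 16 were in (B6.A14 x B6.A4)F1, 15 of them lower, where 14.1% of all genes were called and 7.21% were lower. In this strain Masp2 was 137.8, 159.6, 139.9, 154.9 and 129.8 CPM, with all 5 mice below the lowest B6 mouse, and differed from B6 by -0.44 ± 0.06 (SE; edgeR, BH-adjusted p = 5.95e-09). Without the mouse low in Y-linked RNA the strain had 8 calls, 7 of them lower, and Masp2 differed by -0.38 (edgeR, BH-adjusted p = 2.8e-06). (B6.A3 x B6.A5)F1 had 7 calls (13.4% of all genes were called), (B6.A14 x B6.A8)F1 had 3 (4.91%), and no other had more than 2. In (B6.A6 x B6.A8)F1, 0 members were called and 7 had an unadjusted p under 0.05, where 2.55% of all genes were called.

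Within strains, some members varied together over the 154 mice. The Pearson r of the deviations from the strain means was 0.97 for Fgb and Fgg, 0.93 for Fga and Fgg, 0.92 for Fga and Fgb, which lie side by side on chromosome 3, and 0.81 for C8a and C8b. C8g, the third chain of C8, had an r of 0.20 with C8a and 0.35 with C8b. For F2 and Serpinc1 it was 0.84, for F2 and F12 0.83 and for Vtn and Cfi 0.82. For Kng1 and Kng2, which are near copies, it was 0.85. Over all 703 pairs the values ran from -0.57 (Masp2 and Mbl2) to 0.97, with a median of 0.32. All pairs share the libraries and their depth, and the wide spread of mice within A8 and A14 enters every value. Pairs of other genes were not examined.

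Of 54 further genes of these pathways, 45 were in the table. In A8, 21 of the 45 were called (29.6% of all genes were), 15 of them lower (16.7% of all genes), with a median of -0.10. In A14, 24 were called (22.5% of all genes were), 15 of them lower (12.6% of all genes), with a median of -0.08. Itih2, which encodes a heavy chain of the inter-alpha-trypsin inhibitors, was 1450 ± 168.4 CPM in B6 (SD, n = 20) and 837.9 ± 181.5 CPM in A8 (SD, n = 8), with a log2 difference of -0.69 (edgeR, BH-adjusted p = 1.32e-09). Cpn2, the regulatory subunit of carboxypeptidase N, differed by -0.60 in A8 (edgeR, BH-adjusted p = 1.9e-09). Itih1, another heavy chain, lies on chromosome 14 and differed by -0.51 in A14 (edgeR, BH-adjusted p = 4.3e-09). Of 14 acute phase genes, 7 were lower and 1 was higher in A8 (29.6% of all genes were called), 5 were lower in A14 (22.5%), 7 were higher in A4 (13.5%), 3 were lower in A6 (8.09%), 1 was higher in A3 (3.70%), 1 was lower in A17 (3.67%) and 0 were called in A5 and A10.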

How the data were processed

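The authors sequenced stranded total RNA libraries of liver, used TopHat2 to align single-end reads to mm10 and the leftover reads to a genome with A/J variants, and used HTSeq for counting. The deposited values are raw counts per gene and mouse, not normalized. A read lost over A/J variants would lower the count of a gene on a substituted chromosome. Mapping efficiency was compared by the authors, who saw no significant difference between B6 and the CSSs, genome-wide or for the substituted chromosome. For single members this was not examined here. The labels give no flow cell for a mouse, so it is not in the model, and 1 label lacked the F1 of its strain.

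Counts were normalized by TMM in edgeR (version 4.0.16, R version 4.3.3), with 5 surrogate variables from svaseq (sva version 3.50.0) on counts scaled by TMM. The fitted model contained all 8 main effects and 15 interactions and was fitted to all 13289 genes. Effects were tested by edgeR's quasi-likelihood F-test, and p-values were adjusted by Benjamini-Hochberg within each effect, separately for genes on and off the substituted chromosomes, at an FDR of 0.05. Double CSSs against B6 and the joint tests were adjusted over all genes. Gene positions came from GENCODE vM21, and 47 genes without one counted as off the chromosome. CPM values use TMM library sizes, with a prior count of 2 on the log2 scale. They carry no surrogate variables, so the log2 differences of the model can depart from ratios of CPM.

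Named are members on their own substituted chromosome, the 3 called members with the lowest adjusted p in each main effect and each interaction, and the 3 further pathway genes with the lowest. Other members were named after their values were seen, among them F7 and F10 in the double CSSs, Masp2 in (B6.A14 x B6.A4)F1 and the exceptions to counts. The members and lists were chosen with earlier results of these data known. The code was tested on simulated data. Other settings tried were 10 or 0 surrogate variables, estimation of them on unscaled counts, 5 within-strain components, DESeq2's size factors and Wald test (version 1.42.0), count filters, legacy=FALSE, a joint adjustment, an FDR of 0.01, a prior count of 0.5, leaving out single mice, and leaving out the mouse low in Y-linked RNA. The mitochondrial share (17 genes) as a covariate and leaving out mice of the single CSSs A8 and A14 were added after seeing the data. Runs that left out single mice in turn kept the surrogate variables and the trended dispersion from all mice. For the mouse low in Y-linked RNA they were also estimated anew.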

Additional observations from a re-analysis of the deposited data

Results flagged for a closer look

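Among 52 groups of 4 to 10 mice tested for a single mouse far from the others, 2 held one, and chance gives about 1 in 20. C3 in replicate 2 of (B6.A17 x B6)F1 was at a log2 CPM of 11.79, below the other mice of its strain. Mbl1 in replicate 3 of (B6.A17 x B6.A8)F1 was at a log2 CPM of 6.70, below the others.

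The effect of a substituted chromosome differed with the partner chromosome, by the test of the interaction itself, for the 102 called pairs of member and cross. The 3 members with the lowest adjusted p in each of 7 crosses, 21 pairs, are given here. In A14:A8 the log2 interactions were 1.08 for F5, 0.69 for F2 and 0.72 for F12. In A6:A8 they were 0.97 for C3, 0.70 for Serping1 and 0.76 for Serpinf2. In A17:A8 they were 0.60 for Serpinf2, 0.52 for Vtn and -0.63 for Mbl1, and in A3:A8 they were 0.59 for Serpinf2, 0.52 for F5 and 0.35 for Serpinc1. In A14:A5 they were 0.75 for C3, 0.77 for Fga and 0.48 for F5, in A14:A10 they were 0.59 for C3, 0.66 for Fga and -1.30 for C6, and in A14:A4 they were -0.61 for Mbl1, -0.34 for C8g and -0.32 for Cpb2. Those with A8 or A14 go with the higher mitochondrial share of the single CSSs, whose part in them was not tested beyond the model with that share as a covariate.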

How the results depend on the processing

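No paired analysis was possible because the labels give no replicate numbers that groups share. With 5 within-strain components in place of surrogate variables, the calls on the substituted chromosome went from 5 to 9, interactions from 102 to 205 and double CSSs against B6 from 35 to 66. With 10 surrogate variables 48 interactions were called. With the mitochondrial share as a covariate, chosen after seeing the data, 45 interactions and 18 members in the joint interaction test were called. At an FDR of 0.01, 16 double CSS calls were left. The cause of these shifts was not tested. The other counts over all effects together stayed within 1.5 times under every alternative run. Those of single effects moved more, except in A8, A14, A14:A8 and A6:A8. Over the alternatives, without leaving out single mice in turn, the calls ranged from 0 to 2 in A3, 2 to 11 in A4, 0 to 17 in A6, 0 to 9 in A10, 0 to 11 in A17, 0 to 21 in A14:A10, 0 to 20 in A14:A4, 1 to 25 in A14:A5, 0 to 31 in A17:A8 and 0 to 25 in A3:A8. Without surrogate variables, with 10 of them and with the mitochondrial share, A8 had 30, 19 and 24 calls, A14 26, 19 and 18, A14:A8 29, 24 and 24, A6:A8 30, 20 and 18, A17:A8 27, 0 and 0 and A3:A8 18, 0 and 0.

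Leaving out each mouse of a double CSS in turn gave 92 to 106 interactions and 29 to 36 double CSS calls, and leaving out each mouse of the single CSSs A8 and A14 gave 5 to 6 calls on and 66 to 70 off the substituted chromosome. A14:A10 fell from 5 calls to 3, 2 and 2 without replicates 3, 4 and 5, A14:A4 went from 3 to 5, 1 and 1 without replicates 2, 3 and 5, and A6:A10 and A6:A4 went from 0 to 1 and 2 without replicates 1 and 5. Mice of double CSSs were not left out for the main effects and joint tests. Since the surrogate variables from all mice were kept, these ranges do not show how their estimation depends on single mice.

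Values that did not pass the test changed sign for Cpb2 in A14 (-0.0407 with 10 surrogate variables, -0.0298 with those from unscaled counts, -0.072 with genes of at least 15 counts in every mouse), C3 in A17 (0.0449 with that filter), C2 in A17 (-0.0375 without surrogate variables, -0.0457 with within-strain components) and Cfb in A17 (-0.0044 with these). Proc in A10, which had passed, changed to -0.0313 without surrogate variables, -0.0319 with within-strain components and -0.0006 with that filter.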
